A study of Schmidtea mediterranea with 48 samples.

Results

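The comparison described here sets wound faces of planarian tail fragments at 6 hours post amputation (hpa) against wound faces taken at 0 hpa, in animals that had been fed double-stranded RNA (dsRNA) against follistatin (fst). It rests on 6 of the 48 libraries of the series, 3 at 6 hpa and 3 at 0 hpa, chosen by their sample labels and not by any measured value. All animals were Schmidtea mediterranea of the strain CIW4, an asexual line kept as 1 clone, and RNA interference (RNAi) was done by feeding. The fst animals ate dsRNA 6 times. Controls of the same experiment ate dsRNA against unc-22, a Caenorhabditis elegans gene, also 6 times, and were sampled at 6 and 0 hpa in 3 libraries each. A separate experiment gives a further set of unc-22 controls with 3 libraries at each time, labelled as fed 10 times, although the design text of the series gives 8 feedings for that experiment. Both experiments also hold libraries at 24 and 48 hpa, and the second also holds animals fed dsRNA against myoD. Each library came from poly(A) RNA of 5 pooled wounds. The labels do not say whether the 3 libraries of a group came from separate rounds of feeding, so p-values measure the spread between these libraries only.

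Follistatin is a secreted protein that binds Activin-type ligands of the TGF-beta family and keeps them from their receptors. Planarians regrow lost parts from neoblasts, their dividing stem cells, and a cut first switches on a set of wound-response genes within hours, at any kind of wound, before a later response that depends on missing tissue. In planarians fst is transcribed at wounds and is needed for the regrowth of missing parts, which is the setting in which the early response was measured here.

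The count table pairs no transcript identifier with a gene name. The level of fst itself could therefore not be read in any library, nor could the markers of muscle, gut, neoblasts or any other cell type, and no function is given to any identifier below. Wound faces are mixtures of cells, and in bulk RNA fewer cells of a type and less RNA per cell cannot be told apart. The fst libraries held 17436452 to 19559029 counted reads at 6 hpa and 10209839 to 19092412 at 0 hpa, within the 7169717 to 22065480 of all 48 libraries. Replicates of the fst libraries had Pearson correlations of 0.992 to 0.996 on the log2 scale, and each pair differed by more than counting error, with a chi-square per degree of freedom of at least 5.78, so none was counted as a repeat of another. The most counted transcript took 9.44% to 11.6% of the reads in the 6 fst libraries. It took 4.19% in replicate 1 of fst at 48 hpa, which the labels describe as highly contaminated with human reads. That library is in neither group compared, but it enters the fit through the filter on low counts, the scaling and the shared estimate of spread. It is also among the libraries behind every fst value at 48 hpa given below.

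By 6 hpa the wounds of fst animals had changed in both directions, and more transcripts rose than fell. Of 17815 transcripts tested, 869 rose, or 4.88%, and 507 fell, or 2.85%, at an adjusted p under 0.05 (edgeR quasi-likelihood test, Benjamini-Hochberg adjustment, fitted on all 24 libraries of the 6-feeding experiment). Most changes were small. The median log2 fold change was 0.54 among those that rose and −0.59 among those that fell, against −0.019 over all transcripts tested. Changes of at least 2-fold made up 134 of the rises, or 0.752% of all tested, and 117 of the falls, or 0.657%. The counts depend on single libraries, since each group has 3. Without the contaminated library 1400 rose and 929 fell, with 18179 transcripts tested. The total of 1376 was 904 without fst 6 hpa replicate 2, 682 without fst 6 hpa replicate 3, 797 without fst 0 hpa replicate 1 and 795 without fst 0 hpa replicate 2, and 331 in place of 507 fell without fst 0 hpa replicate 3. Of the falls of at least 2-fold, 52 were called without fst 6 hpa replicate 3, 67 without fst 0 hpa replicate 1 and 62 without fst 0 hpa replicate 2. Which direction had more changes of at least 2-fold also depended on the libraries fitted, with 146 rises and 156 falls without the contaminated library, 132 and 137 with only the 6 libraries compared, and 128 and 129 with the 12 libraries at 6 and 0 hpa.

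Most calls in either direction lay at 10 CPM and above, with 686 of the 869 rises and 313 of the 507 falls. Levels are given as CPM, normalised read counts computed on library sizes that were adjusted by the trimmed mean of M values. Among the 2695 transcripts with a mean under 1 CPM over the 6 fst libraries, 26 rose and 46 fell. Among the 5691 between 1 and 10 CPM, 157 rose and 148 fell. Between 10 and 100 CPM, 562 of 7779 rose, or 7.22%, while 267 fell, or 3.43%. At 100 CPM and above, 124 of 1650 rose, or 7.52%, and 46 fell, or 2.79%. Changes of at least 2-fold were divided otherwise, with 26 rises and 45 falls under 1 CPM, 47 and 63 between 1 and 10 CPM, 45 and 8 between 10 and 100 CPM, and 16 and 1 at 100 CPM and above. The median standard error of a log2 fold change was 0.447 under 1 CPM and 0.102 at 100 CPM and above, so small changes could be called only among well-counted transcripts.

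**Figure D1:**
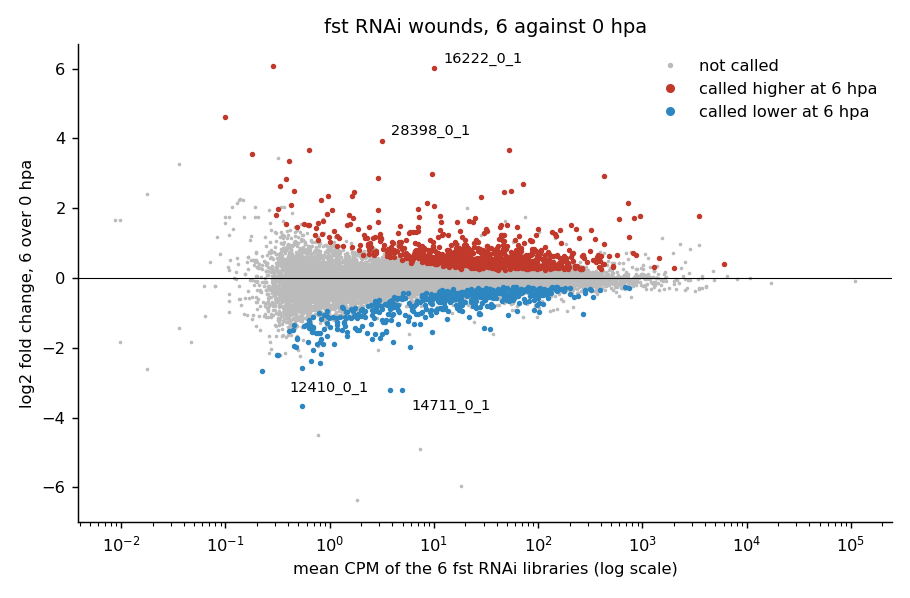
Fitted log2 fold change of each of 17815 transcripts at 6 over 0 hpa after fst RNAi (vertical axis) against its mean CPM over the 6 fst libraries (horizontal axis, log scale). Red points are the 869 called higher at 6 hpa and blue points the 507 called lower, with the 4 transcripts described in the text marked by the end of their identifiers; calls of at least 2-fold are mostly rises at 10 CPM and above.

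The largest rise was that of dd_Smed_v4_16222_0_1, taken over called transcripts that averaged 1 CPM or more and whose libraries did not overlap between 6 and 0 hpa. It stood at 17.1, 18.2 and 24.3 CPM in the fst libraries at 6 hpa, against 0.200, 0.231 and 0.426 CPM at 0 hpa. All 3 libraries at 6 hpa were far above all 3 at 0 hpa. The log2 fold change was 6.01 with a standard error of 0.28 (edgeR adjusted p = 4.18e-13). In the controls of the same experiment its level was 16.4, 16.1 and 20.4 CPM at 6 hpa, against 0.262, 0.0922 and 0.314 CPM at 0 hpa, a log2 fold change of 6.35. The difference between the responses, fst minus control, was −0.35 on the log2 scale with a 95% interval of −1.55 to 0.85. In the other experiment its log2 fold change was 5.44 in the 10-feeding controls and 5.84 after myoD RNAi.

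The later levels of dd_Smed_v4_16222_0_1 ran apart from those of the controls. At 24 hpa it averaged 3.13 ± 0.71 CPM in fst wounds and 14.6 ± 1.8 CPM in the 6-feeding controls, and at 48 hpa 1.25 ± 0.45 CPM in fst wounds and 7.59 ± 1.31 CPM in those controls (SD, n = 3 each). The fst libraries at 48 hpa had 1.63, 1.36 and 0.755 CPM, the first of them the contaminated one. No fst library at 24 or 48 hpa reached the lowest control library of its time. After myoD RNAi the later levels were also below those of the controls of that experiment. At 24 hpa the myoD libraries had 1.18, 1.16 and 0.509 CPM, against 8.18, 14.7 and 13.4 CPM in the 10-feeding controls. At 48 hpa the myoD libraries had 0.515, 0.149 and 0.376 CPM, against 5.68, 6.87 and 8.44 CPM in those controls. Lower later levels were thus seen after both kinds of RNAi. The differences at these later times were not tested.

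The second rise was that of dd_Smed_v4_28398_0_1, a transcript of low level. It had 4.85, 5.44 and 7.66 CPM in fst wounds at 6 hpa, against 0.200, 0.231 and 0.639 CPM at 0 hpa. The times did not overlap, as the rule required, and the log2 fold change was 3.93 with a standard error of 0.36 (edgeR adjusted p = 3.96e-08). The 6-feeding controls had 2.52, 0.884 and 2.16 CPM at 6 hpa, all below the lowest fst library of that time, against 0.131, 0.0922 and 0.377 CPM at 0 hpa. Their log2 fold change was 3.30, and the difference, fst minus control, was 0.63 with a 95% interval of −0.92 to 2.18, so a difference in response was not detectable at these counts. In fst wounds the level averaged 1.57 ± 0.26 CPM at 24 hpa and 0.558 ± 0.261 CPM at 48 hpa (SD, n = 3 each). The 6-feeding controls averaged 1.41 ± 0.07 and 0.838 ± 0.146 CPM at these times.

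By the same rule the largest fall was that of dd_Smed_v4_14711_0_1. It had 0.896, 0.702 and 1.29 CPM in fst wounds at 6 hpa, against 8.09, 8.26 and 10.7 CPM at 0 hpa. Every library at 6 hpa lay below every library at 0 hpa, as the rule required, with a log2 fold change of −3.21 and a standard error of 0.27 (edgeR adjusted p = 1.48e-08). The 6-feeding controls had 0.420, 1.08 and 1.15 CPM at 6 hpa, against 7.87, 5.81 and 6.22 CPM at 0 hpa. Their log2 fold change was −2.93, and the difference, fst minus control, was −0.28 with a 95% interval of −1.19 to 0.63. The fall lasted in fst wounds, where the level averaged 0.383 ± 0.222 CPM at 24 hpa and 0.403 ± 0.184 CPM at 48 hpa (SD, n = 3 each). It lasted in the 6-feeding controls too, at 0.475 ± 0.228 CPM at 24 hpa and 0.600 ± 0.195 CPM at 48 hpa.

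The fall of dd_Smed_v4_12410_0_1 was of like size. It had 0.580, 1.05 and 0.589 CPM in fst wounds at 6 hpa, against 8.09, 4.85 and 7.77 CPM at 0 hpa, with no overlap, as the rule required. The log2 fold change was −3.20 with a standard error of 0.33 (edgeR adjusted p = 4.17e-07). The 6-feeding controls had 0.480, 1.87 and 0.954 CPM at 6 hpa, against 5.97, 5.81 and 5.28 CPM at 0 hpa. Their log2 fold change was −2.47, and the difference, fst minus control, was −0.73 with a 95% interval of −1.77 to 0.31.

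The same 2 transcripts moved otherwise in the 10-feeding controls. There dd_Smed_v4_14711_0_1 had 2.91, 2.68 and 0.977 CPM at 6 hpa, against 1.22, 0.778 and 0.910 CPM at 0 hpa, a log2 fold change of 1.17 (edgeR adjusted p = 0.0137), although 1 library at 6 hpa fell within the range at 0 hpa. Its level at 0 hpa was thus lower in each of these controls than in any fst library at 0 hpa. The other, dd_Smed_v4_12410_0_1, had 1.53, 2.34 and 0.907 CPM at 6 hpa, against 0.513, 0.566 and 1.59 CPM at 0 hpa, and its log2 fold change of 0.80 was not called (edgeR adjusted p = 0.118).

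**Figure D2:**
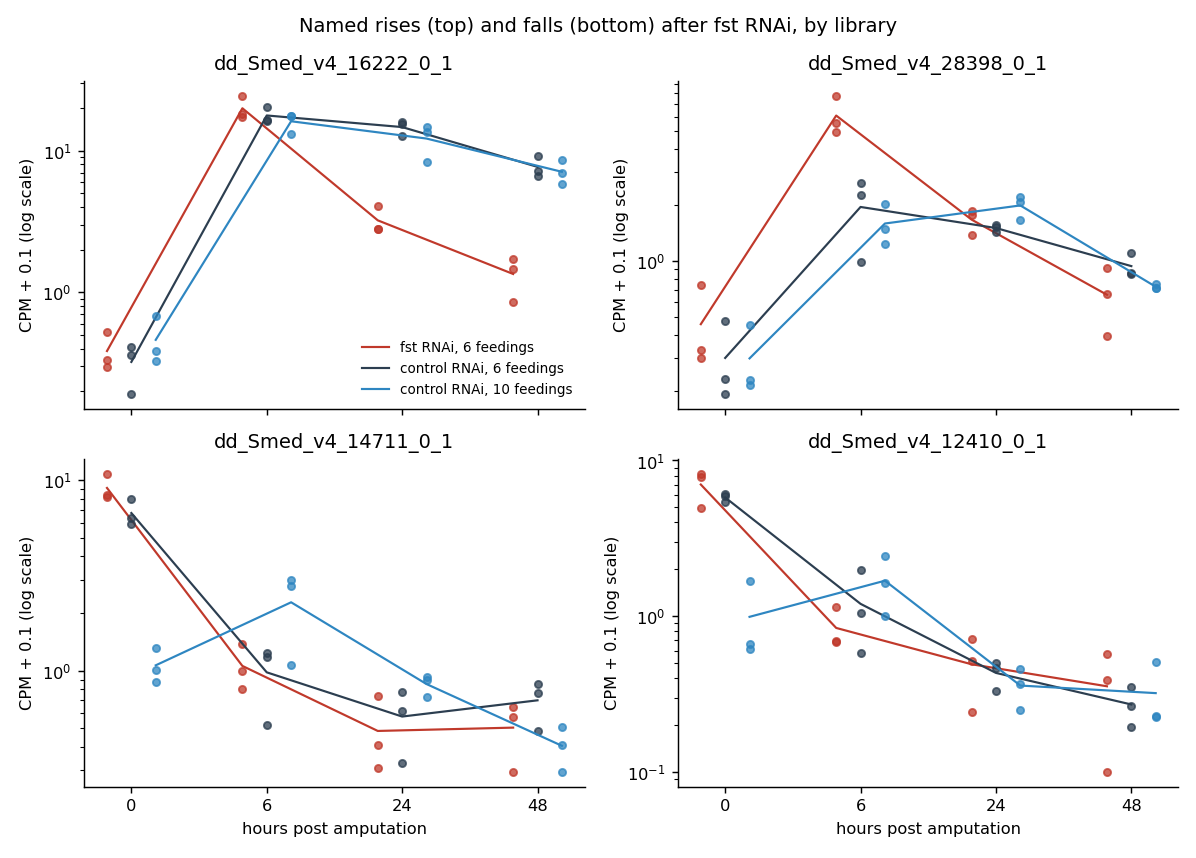
Levels of the 2 rising (top) and 2 falling (bottom) transcripts named by the rule on level and overlap, as CPM plus 0.1 on a log scale, against hours post amputation; points are single libraries and lines join the means of 3 libraries of fst RNAi, the 6-feeding controls and the 10-feeding controls. At 6 hpa fst and 6-feeding control libraries lie close together for dd_Smed_v4_16222_0_1, dd_Smed_v4_14711_0_1 and dd_Smed_v4_12410_0_1, while dd_Smed_v4_16222_0_1 is lower in fst wounds at 24 and 48 hpa and both falling transcripts start lower in the 10-feeding controls.

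Whether knocking down fst changed the early response was asked by the difference between the fst response and that of the 6-feeding controls. No transcript was called, 0% of 17815 (edgeR adjusted p at least 0.999875). An unadjusted p under 0.05 was found for 565, of which 271 had a positive and 294 a negative difference. With no difference at all a share of 0.05 would be expected, and 565 of 17815 is a smaller share. The fit of all 24 libraries was thus cautious, and 0 calls do not show that the responses were alike. Without the contaminated library edgeR gave 906 of 18179 at an unadjusted p under 0.05, with 1 called. With the 12 libraries at 6 and 0 hpa it gave 856 of 16949, with 0 called. Both counts lie close to the share of 0.05 expected with no difference, which does not show that the responses were alike either. DESeq2 called 1 transcript, 0.00562% of those with an adjusted p, and gave 504 at an unadjusted p under 0.05. The precision of this test depended on the level. The median half-width of the 95% interval of the difference was 1.35 on the log2 scale under 1 CPM, 0.64 between 1 and 10 CPM, 0.34 between 10 and 100 CPM and 0.30 at 100 CPM and above. Under 1 CPM, where 45 of the 117 falls of at least 2-fold lay, the typical interval was thus wider than a 2-fold difference in either direction.

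The single call by DESeq2 was dd_Smed_v4_531_0_1, named here after its values were seen. It had 30, 0 and 1 reads in fst wounds at 6 hpa, against 420, 1 and 1244 reads at 0 hpa, and 0 reads in each 6-feeding control at 6 hpa, against 505, 155 and 3 reads at 0 hpa. In both groups the libraries at 0 hpa ranged widely, and the ranges of fst and control libraries overlapped. Another transcript, dd_Smed_v4_1224_0_1, also named after its values were seen, was called by edgeR only where the contaminated library or all 48 hpa libraries were left out (adjusted p = 0.0126 and 0.0412). It had 113, 109.8 and 103 CPM in fst wounds at 6 hpa, against 147, 147 and 144 CPM at 0 hpa. In the 6-feeding controls it had 155, 178 and 149.8 CPM at 6 hpa, against 138, 129.6 and 133.9 CPM at 0 hpa. The fst libraries were all lower at 6 hpa and the control libraries all higher, with a difference of −0.69 on the log2 scale that had an adjusted p of 0.999875 in the fit of all 24 libraries by edgeR.

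The transcripts with the smallest p in each direction of the difference were not called either. The smallest p on the negative side belonged to dd_Smed_v4_7413_0_1, which had 41.0, 45.3 and 54.8 CPM in fst wounds at 6 hpa, against 29.8, 30.3 and 37.9 CPM at 0 hpa. The 6-feeding controls had 60.6, 83.9 and 71.9 CPM at 6 hpa, against 27.7, 23.9 and 30.0 CPM at 0 hpa. It rose by a log2 value of 0.53 after fst RNAi (edgeR adjusted p = 0.0196) and by 1.42 in those controls, and the difference was −0.88 (edgeR, unadjusted p = 0.000189, adjusted p = 0.999875). Next came dd_Smed_v4_7676_0_1, with a log2 fold change of −0.023 after fst RNAi and 0.74 in the controls. On the positive side dd_Smed_v4_15865_0_1 had a log2 fold change of −0.98 after fst RNAi and −1.74 in the controls, and dd_Smed_v4_19414_0_1 had 0.048 and −1.04. None of the 4 differences passed adjustment. In the controls of the other experiment, fitted apart, the log2 fold changes were 0.34 for dd_Smed_v4_7413_0_1 and −0.11 for dd_Smed_v4_7676_0_1. They were −0.57 for dd_Smed_v4_15865_0_1 and 0.17 for dd_Smed_v4_19414_0_1. After myoD RNAi they were 0.61, −0.14, −0.96 and −0.14 in the same order. For each transcript both values lay nearer to that after fst RNAi than to that in the 6-feeding controls. The gap between the sets of controls was not tested.

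The transcripts that rose after fst RNAi moved the same way in the 6-feeding controls in most cases. In those controls 674 transcripts rose, or 3.78% of those tested, and 500 fell, or 2.81%, with 99 rises and 136 falls of at least 2-fold, or 0.556% and 0.763%. The control total of 1174 was 2132 without the contaminated library, 398 without control 6 hpa replicate 3, 511 without control 0 hpa replicate 2 and 546 without control 0 hpa replicate 3. The control response shares no library with the fst response. Of the 869 that rose after fst RNAi, 483 also rose in these controls, which is 55.6% of the fst list and 71.7% of the control list, and 0 fell. In all, 856 of the 869 had the same sign, or 98.5%, beside 12767 of all 17815 transcripts tested, or 71.7%. Of the 507 that fell, 202 also fell in the controls, which is 39.8% of the fst list and 40.4% of the control list, 0 rose, and 487, or 96.1%, had the same sign. Across all 17815 transcripts the log2 fold changes of the 2 responses had a Pearson correlation of 0.63 and a Spearman correlation of 0.57, as a description over transcripts that are not independent and were fitted together.

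The 10-feeding controls give the same contrast in animals of another experiment, fitted apart, and their response had more calls. In them 1738 of 17527 transcripts rose, or 9.92%, and 1748 fell, or 9.97%, with 274 rises and 67 falls of at least 2-fold, or 1.56% and 0.382%. The biological coefficient of variation was 8.34% in that experiment and 13.0% in the 6-feeding experiment, which holds the contaminated library. Of the 868 transcripts that rose after fst RNAi and were tested in both fits, 567 rose in the 10-feeding controls, which is 65.3% of the fst list and 33.3% of the other, and 0 fell. Of the 499 that fell after fst RNAi, 248 fell there, which is 49.7% of the fst list and 14.2% of the other, and 32 rose. The log2 fold changes of these responses had a Pearson correlation of 0.34 and a Spearman correlation of 0.36, as a description over the 17288 transcripts tested in both, which share no library.

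**Figure D3:**
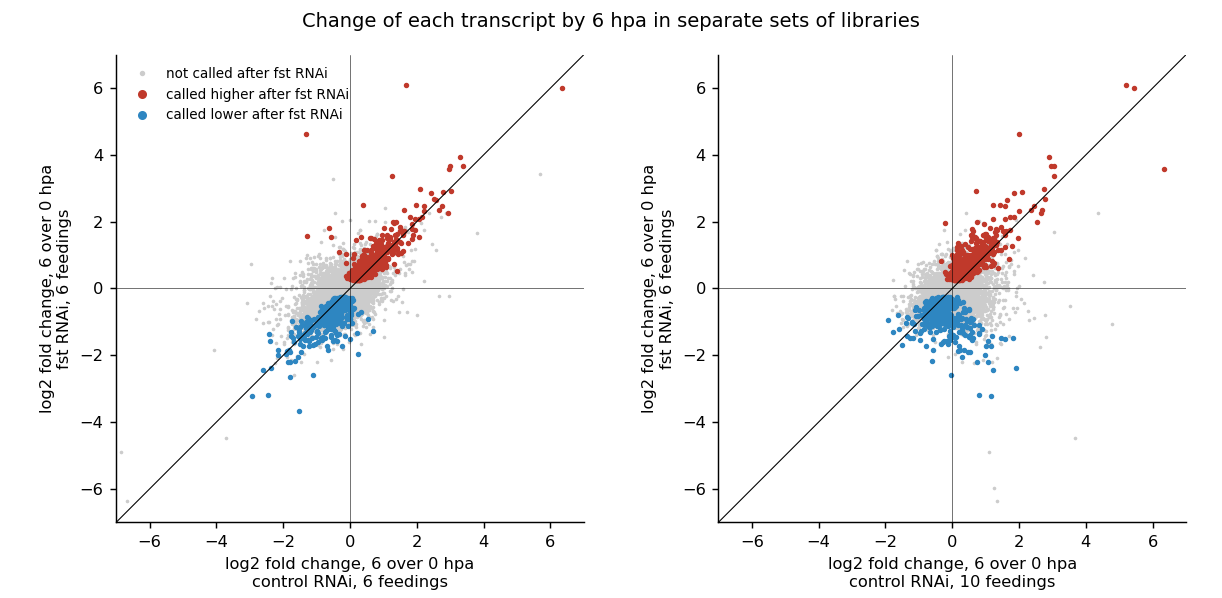
Log2 fold change at 6 over 0 hpa after fst RNAi (vertical axes) against that in the 6-feeding controls (left) and the 10-feeding controls (right), 1 point a transcript, with the line of equal change; 1 transcript lies outside the left axes. Red points, called higher after fst RNAi, run along the line in both panels, while many blue points, called lower after fst RNAi, lie at or right of 0 in the 10-feeding controls.

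Most rises of at least 2-fold after fst RNAi were called higher in the 10-feeding controls too, by a change of any size. There 102 of the 133 tested rose, or 76.7%, and 0 fell. Of the 17288 transcripts tested in both fits, 9.84% rose there and 10.1% fell. At least 2-fold rises in both were fewer, with 64 of the 133, or 48.1%. Most falls of at least 2-fold after fst RNAi were not called lower in the 10-feeding controls. Of the 117 transcripts that fell at least 2-fold after fst RNAi, 113, or 96.6%, had the same sign in the 6-feeding controls, beside 71.7% of all tested, with a median log2 fold change there of −1.01. In the 10-feeding controls 109 of them were tested, with a median of −0.044. Of these 20 fell, or 18.3%, 20 rose, or 18.3%, and 69 were not called, beside 10.1% and 9.84% of all tested in both fits. The 20 that rose there had, as medians over the transcripts, 1.24, 1.26 and 1.15 CPM in the fst libraries at 6 hpa, against 5.14, 4.51 and 2.93 CPM at 0 hpa. In the 6-feeding controls the same 20 had medians of 1.65, 0.982 and 1.02 CPM at 6 hpa, against 4.43, 4.82 and 4.49 CPM at 0 hpa. In the 10-feeding controls they had medians of 7.04, 7.44 and 6.95 CPM at 6 hpa, against 3.94, 3.54 and 3.87 CPM at 0 hpa. The sets at 0 hpa were thus close to each other or overlapped, and those at 6 hpa did not overlap between the experiments, though these 20 were chosen by calls on the same values. At 24 hpa their medians in fst wounds were 3.93, 3.68 and 3.63 CPM, against 1.70, 1.09 and 3.21 CPM in the 6-feeding controls at 24 hpa. The order did not last to 48 hpa. There the medians were 1.90, 1.61 and 1.75 CPM in fst wounds, the first from the contaminated library, against 4.11, 2.24 and 1.83 CPM in the 6-feeding controls. These later differences were not tested.

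The difference between the fst response and that of the 10-feeding controls was tested in a fit of all 48 libraries that was added after the data had been seen. There 31 transcripts stood higher, or 0.17% of 18230 tested, and 196 lower, or 1.08% (edgeR quasi-likelihood test, adjusted p under 0.05). The 196 had median log2 fold changes of −0.77 after fst RNAi, −0.73 in the 6-feeding controls and 0.55 in the 10-feeding controls, over the 191, 191 and 186 tested in each fit. Of the 191, 189 were below 0 in fst wounds and 189 in the 6-feeding controls. Of all 17815 tested, 8366 were above 0 in fst wounds and 8882 in the 6-feeding controls. For the 31 that stood higher the medians were 0.42, 0.29 and −0.18 in the same order. The changes in fst wounds and in the 10-feeding controls are part of the contrast that chose these transcripts, so their signs are no separate result. Among them all, dd_Smed_v4_14711_0_1 had a difference of −4.40 (adjusted p = 1.29e-08) and dd_Smed_v4_12410_0_1 one of −4.02 (adjusted p = 3.25e-06). The number of feedings, the experiment and fst RNAi cannot be told apart in this contrast. The count of 227 was 386 without the contaminated library and between 114 and 151 without fst 6 hpa replicate 1 or 3, fst 0 hpa replicate 1 or 2, or 10-feeding control 0 hpa replicate 2 or 3.

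**Figure D4:**
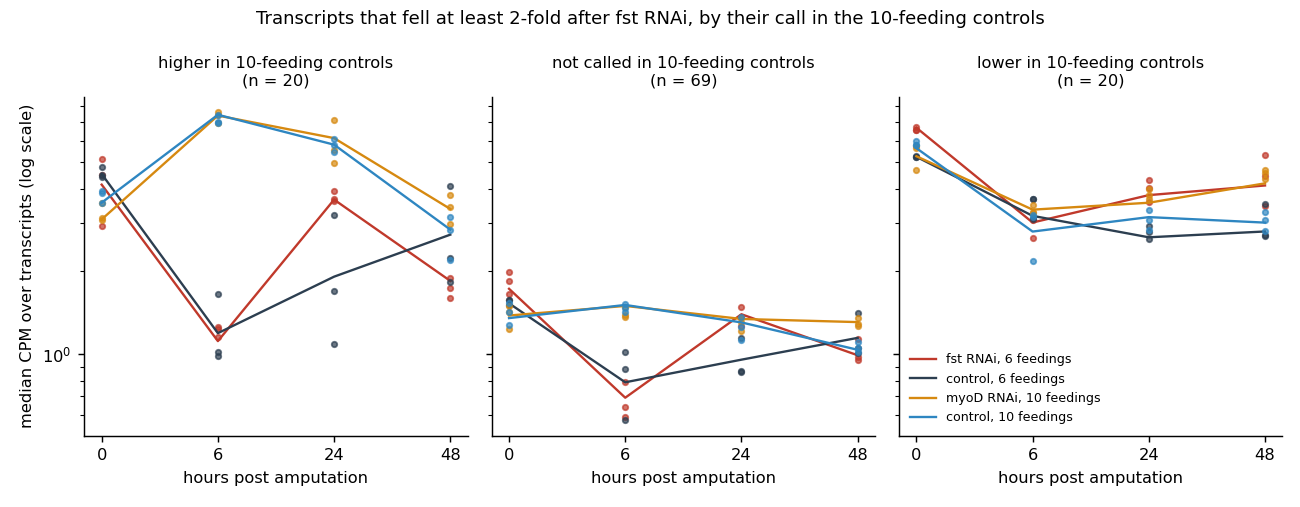
Median CPM (log scale) of the transcripts that fell at least 2-fold after fst RNAi, against hours post amputation, split by their call at 6 over 0 hpa in the 10-feeding controls into higher (20), not called (69) and lower (20); points are the medians in single libraries and lines join the medians of the group means. The 20 in the left panel are low at 6 hpa in both groups of the 6-feeding experiment and high at 6 hpa in both groups of the 10-feeding experiment.

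Lists of wound transcripts taken from the 10-feeding controls, which share no library with the fst response, show which kinds of early change were present in fst wounds. The list of 274 transcripts that rose at least 2-fold by 6 hpa was divided by what followed in those controls. A brief group of 114 was no longer called higher at 24 hpa. A middle group of 83 was called higher at 24 but not at 48 hpa, and a lasting group of 77 was called higher at both. A late list of 278 was not called higher at 6 hpa but was called at least 2-fold higher at 48 hpa. A fallen list of 67 had dropped at least 2-fold by 6 hpa.

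The lasting group had the highest share of risen members in fst wounds. Of its 77 members 76 were tested, and of those 50 rose, 65.8%, and 1 fell, beside 4.88% and 2.85% of all tested. Their median log2 fold change was 1.28 after fst RNAi, 1.05 in the 6-feeding controls and 1.35 in the 10-feeding controls that defined the list. In the brief group the counts were lower, with 14 of 92 tested that rose, 15.2%, 4 that fell and a median of 0.18, against −0.078 in the 6-feeding controls. Its median was −0.018 without fst 6 hpa replicate 3. In the middle group 9 of 70 rose and 6 fell, with a median of −0.22 after fst RNAi and −0.69 in the 6-feeding controls. Of the whole list of 274, 238 were tested, 73 rose and 11 fell, with a median of 0.43, against 0.11 in the 6-feeding controls and −0.019 over all tested.

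These groups differed in level, and with it in precision. The median of the mean levels in the fst libraries was 2.92 CPM in the lasting group, 0.812 CPM in the middle group and 0.639 CPM in the brief group, beside 11.6 CPM over all tested. How far the level sets the counts was not tested. In the late list 31 of 270 tested rose, 11.5%, and 0 fell, beside 4.88% and 2.85% of all tested, with a median of 0.22. In the fallen list all 67 were tested, 19 fell, 28.4%, and 0 rose, beside 2.85% and 4.88% of all tested. Its median was −0.55 after fst RNAi, −0.29 in the 6-feeding controls and −1.24 in the 10-feeding controls.

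**Figure D5:**
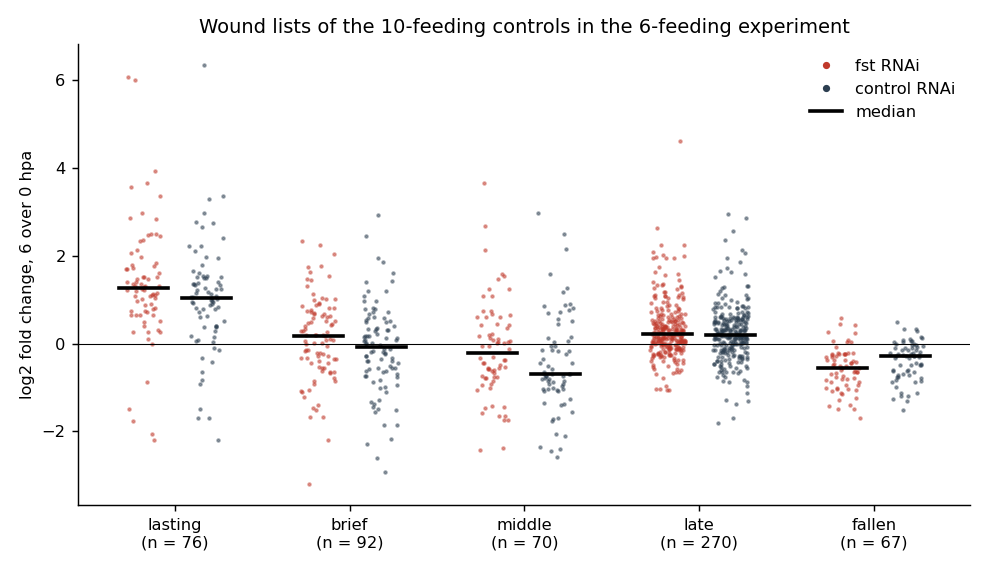
Log2 fold change at 6 over 0 hpa of the members of 5 wound lists defined in the 10-feeding controls, in fst wounds (red, left of each pair) and in the 6-feeding controls (dark, right), 1 point a transcript with the median as a bar. The lasting list has medians of 1.28 after fst RNAi and 1.05 in the 6-feeding controls, and the brief and middle lists spread around 0.

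At the later times these lists, read against the same fst libraries at 0 hpa, gave medians that share those libraries with the values at 6 hpa. Taken at 6, 24 and 48 hpa, the lasting group had median log2 fold changes of 1.28, 0.84 and 0.63 in fst wounds, and 1.05, 1.09 and 1.06 in the 6-feeding controls. The late list stood at 0.22, 0.53 and 0.53 in fst wounds and at 0.20, 0.76 and 1.19 in the 6-feeding controls. At 6 hpa the fst median was at or above that of the controls in both, and at 24 and 48 hpa it was below. The medians over all transcripts tested were 0.0063 and 0.012 at these later times in fst wounds. The fst medians at 48 hpa include the contaminated library. These differences between fst and control medians were not tested.

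The share of all reads taken by the 274 risen transcripts was read in each library. Such a share is weighted towards abundant members and does not give the change of a typical one. Over the 238 members tested, the median level in the fst libraries was 0.890 CPM and the median log2 fold change 0.43. Of these 238, 157 were above 0 after fst RNAi, beside 8366 of all 17815 tested. In fst wounds it was 1.097%, 1.26% and 1.40% at 6 hpa, against 0.404%, 0.375% and 0.434% at 0 hpa. The 6-feeding controls had 1.01%, 1.03% and 1.21% at 6 hpa, against 0.375%, 0.357% and 0.373% at 0 hpa. The times did not overlap in either, while the fst and control ranges overlapped at 6 hpa. The ratio of the fst means was 3.10, and the widest 95% Wilson interval of any of these shares spanned 0.0121 percentage points, which covers counting error only. The share stood at 0.582% ± 0.072 in fst wounds and 0.684% ± 0.011 in controls at 24 hpa, and at 0.459% ± 0.013 in fst wounds and 0.653% ± 0.021 in controls at 48 hpa (SD, n = 3 each). The fst libraries at 48 hpa had 0.474%, 0.450% and 0.453%, the first of them the contaminated one. After myoD RNAi the share was 0.506% ± 0.054 at 24 hpa and 0.394% ± 0.028 at 48 hpa. In the 10-feeding controls, which defined the list, it was 0.646% ± 0.014 and 0.613% ± 0.040 (SD, n = 3 each).

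Replicates within the fst groups agreed closely for most transcripts. Among transcripts with a mean of at least 5 CPM, the median coefficient of variation was 6.78% at 6 hpa and 5.60% at 0 hpa. A range of at least 4-fold between the 3 libraries was seen in 9 transcripts at 6 hpa and 52 at 0 hpa. Of these 52, 47 had their lowest level in replicate 2, and none of the 9 or the 52 was called. Some identifiers share a component number of the transcript assembly, and reads could be split between them. There were 134 such components with several tested transcripts, 273 in all, of which 20 rose, or 7.33%, and 13 fell, or 4.76%, after fst RNAi, beside 4.88% and 2.85% of all tested. Of the components, 4 had several called transcripts and 0 had calls in both directions, and none of the 2 rising and 2 falling transcripts followed above had a related one in the table.

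The authors' deposited table for the same contrast held 386 transcripts higher at 6 hpa, or 1.51% of the 25553 with an adjusted p, and 197 lower, or 0.771%, at an adjusted p under 0.05. Of these 583, 572 were also called here by edgeR, all in the same direction. In the authors' deposited table dd_Smed_v4_16222_0_1 had a log2 fold change of 6.13, dd_Smed_v4_28398_0_1 of 4.08, dd_Smed_v4_14711_0_1 of −3.22 and dd_Smed_v4_12410_0_1 of −3.21. The descriptions of the fst libraries name the control tables and those of the control libraries the fst tables, so the group means in the authors' deposited table were set against the count columns. They matched the columns of the same name, with a standard deviation of the log2 ratio of at most 0.0287, against 0.237 or more for the next closest group.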

How the data were processed

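The authors deposited whole-number read counts for 26563 transcripts in 48 libraries, made from a stranded poly(A) kit per the labels' protocols. CASAVA, cutadapt 1.8, Bowtie 1.1.1, SAMtools and DESeq are named in the submitters' processing notes; the settings and the reference are not given in the sources used here. Comparisons come as the authors' deposited tables, which hold mean normalized signal, a fold ratio, a log2 fold change and p-values.

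Counts were filtered with filterByExpr, scaled by the trimmed mean of M values and tested with edgeR 4.0.16 (R 4.3.3) by a robust quasi-likelihood fit with 1 coefficient a group over 24 libraries, with Benjamini-Hochberg adjustment over all transcripts tested. Standard errors were taken as the log2 fold change over the root of F. DESeq2 1.42.0 was an alternative, as were other scalings, filters, libraries and left-out replicates. The script was tested on simulated data. Levels in CPM use all 48 libraries. Named were the 2 transcripts that rose and the 2 that fell by the largest fold, if called, averaging 1 CPM or more and not overlapping between times, and those with the 2 smallest p in each direction of the difference, where none was called. Members and lists were chosen with earlier results of these data known. Gene lists and cell type markers prepared by name were not read, since 0 names are paired with identifiers.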

Additional observations from a re-analysis of the deposited data

Results flagged for a closer look

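The change by 6 hpa differed between fst wounds and the 10-feeding controls in 227 transcripts by the test of the difference itself (edgeR quasi-likelihood test in a fit of all 48 libraries, adjusted p under 0.05), of which 31 stood higher and 196 lower in fst wounds. No cause was tested, and the number of feedings, the experiment and fst RNAi cannot be told apart in it. Of the 191 lower transcripts tested in the 6-feeding fit, 189 were below 0 in the 6-feeding controls, where 8882 of all 17815 tested were above 0. In fst wounds 189 were below 0 too, but the fst change is part of the contrast that chose them.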

How the results depend on the processing

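The 2 rising and 2 falling transcripts named by the rule on level and overlap kept their direction and their call under every alternative run. They were chosen as called extremes of the same data, so this is no separate support for them. The total of 1376 calls was 2847 with only the 6 libraries compared (1646 higher, 1201 lower), 2123 with the 12 libraries at 0 and 6 hpa (838 lower) and 2343 without the 48 hpa libraries (1567 higher, 776 lower). With single libraries left out it ranged from 682 to 2329, the higher calls from 469 to 1400 and the lower from 213 to 929. Calls of at least 2-fold ranged from 155 to 302, the higher of these from 103 to 146 and the lower from 52 to 156; 75 were lower with a mean of at least 1 CPM. The 6-feeding control total of 1174 was 726 with only the libraries compared, 2210 without the 48 hpa libraries and 398 to 2132 with libraries left out. The difference from those controls had 1 call with DESeq2 and 1 without the 48 hpa libraries, and 0 to 1 with libraries left out. The difference from the 10-feeding controls, 227, was 376 with the libraries at 0 and 6 hpa (121 higher) and 114 to 386 with libraries left out (9 to 105 higher, 105 to 281 lower); DESeq2 gave 49 higher. Why these counts moved was not tested; 16614 to 17340 transcripts were tested in the fits of fewer groups and 18169 to 18265 with single libraries left out, against 17815.

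List medians moved with the fold that defines a list, at 1.5-fold and 3-fold: brief 0.11 and 0.42, middle −0.32 and −0.12, lasting 0.81 and 1.98, late 0.15 and 0.35; risen was 0.65 at 3-fold. The share ratio was 2.29 and 3.82. With the 12 libraries risen was 0.63, brief 0.34 and middle −0.071; middle was −0.37 with relative log expression size factors. With libraries left out risen ranged from 0.35 to 0.43, brief from −0.018 to 0.19, middle from −0.34 to −0.20, lasting from 1.24 to 1.42; brief reversed without fst 6 hpa replicate 3.

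Same-numbered fst libraries at 6 and 0 hpa had deviations correlated at 0.095, 0.036 and 0.042. Over the other pairs of groups at these times in the 6-feeding experiment the values ran from −0.205 to 0.286. Whether same-numbered libraries belong together cannot be read from these values. With a replicate block 1285 transcripts were called, 824 higher and 461 lower. Among transcripts under 1 CPM, depth limits what could be called.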
